A study of Mus musculus with 42 samples.

Results

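The glycolysis and pentose phosphate enzymes of the mouse retina were chosen by symbol from the deposited expression table, which gives FPKM (fragments counted for a gene, scaled to its transcript length and to the size of the library) for 25700 genes. The 38 chosen symbols matched 39 rows, because *Aldoa* stands in the table under 2 gene IDs. RNA was sequenced from 42 retinas, 1 per C57BL/6J mouse, in 7 groups of 6. In normobaric hypoxia (denoted ZH) mice breathed 7% oxygen for 6 h (07-06h-ZH), or 14% oxygen for 6 h (14-06h-ZH), 48 h (14-48h-ZH) or 11 weeks (14-11w-ZH). In hypobaric hypoxia (denoted JFJ) they stayed at 3450 m, where inspired oxygen corresponds to about 14%, for 48 h (14-48h-JFJ) or 7 weeks (14-07w-JFJ). By the paper the JFJ mice were transported to the station and kept on another light/dark cycle than the low-altitude groups. The control group, Normoxia, was kept at 21% oxygen for 11 weeks. Exposure began at an age of 9 to 11 weeks, so the Normoxia mice were older at the end than the mice of 6 h and 48 h. They were also older than those of 14-07w-JFJ, which began at 9 weeks of age and stayed for 7 weeks. The labels name no transgene or deletion in any group. The retina was taken whole, and in bulk tissue fewer cells of a type and less RNA per cell cannot be told apart.

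Glycolysis turns glucose into pyruvate in the cytosol and yields ATP without oxygen, and lactate dehydrogenase then converts pyruvate to lactate. Photoreceptors are known for a high rate of glycolysis even where oxygen is present. Many glycolytic genes are textbook targets of the hypoxia-inducible factors, transcription factors that are stabilized when oxygen falls. The pentose phosphate pathway branches off at glucose 6-phosphate. Its oxidative arm makes NADPH, and its non-oxidative arm exchanges sugars of different length with glycolysis.

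Some properties of the libraries bear on every comparison below. By the prefix of their names the libraries belong to 5 code series, of which Normoxia shares one with 14-11w-ZH and 14-06h-ZH shares one with 14-48h-ZH. Each of the other 3 groups has a series of its own, so that outside these 2 pairs hypoxia and code series cannot be told apart. Y-linked transcripts were found in all 6 mice of 14-11w-ZH and of Normoxia, and in 3 of 6 mice in each of the other 5 groups. The 8 cone markers examined, such as the cone arrestin *Arr3*, summed to 1012 to 1599 FPKM over all mice, and none of them was at 0 in all mice of a group. Their sum was 1012 to 1224 FPKM in 14-48h-ZH and 1341 to 1518 FPKM in 14-48h-JFJ, against 1212 to 1346 FPKM in Normoxia. The 8 rod markers examined summed to 16300 to 17140 FPKM in 07-06h-ZH, against 17910 to 19730 FPKM in Normoxia. By the test 6 rod markers were lower and 1 higher in 07-06h-ZH, while 24% of all genes tested were lower and 18.0% higher. In 14-06h-ZH 5 were lower and none higher, while 24.8% of all genes tested were lower and 9.54% higher. The rod sum was 17600 to 20750 FPKM (median 19320) in 14-06h-ZH, against a median of 18490 FPKM in Normoxia. In 14-48h-ZH that sum was 18930 to 21800 FPKM (median 20650). Retinas of the JFJ groups were dissected without a microscope, and the 10 pigment epithelium markers summed to 43.4 to 791 FPKM in 14-48h-JFJ and 69.5 to 801 FPKM in 14-07w-JFJ, against 14.2 to 476 FPKM in Normoxia. In 07-06h-ZH the same sum was 146.5 to 549.6 FPKM. The 9 lens markers summed to 0.440 to 128 FPKM (median 14.3) in 07-06h-ZH, 35.0 to 28790 FPKM (median 8622) in 14-06h-ZH and 71.1 to 10060 FPKM (median 944) in 14-48h-ZH, against 4.53 to 7305 FPKM (median 167) in Normoxia, and reached 46140 FPKM in 1 mouse of 14-48h-JFJ. Of 8 corneal and conjunctival epithelium markers, 14-06h-ZH had 6 and 14-48h-ZH had 5 above Normoxia by the test, and of the 7 tested at 3450 m 2 were higher after 48 h and 4 after 7 weeks. In 07-06h-ZH 1 was higher and 1 lower, and in 14-11w-ZH none passed in limma. The part of these cell types in the results that follow was not tested.

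In Normoxia the chosen genes differed widely in level. Of the 39 rows, 5 had a mean of at least 1000 FPKM, 17 of at least 100 FPKM and 37 of at least 1 FPKM. *Pkm*, the muscle and brain form of pyruvate kinase, was the most abundant with 2584 ± 149 FPKM (SD, n = 6). It was followed by the aldolase *Aldoa* with 2236 ± 174 FPKM, by *Gapdh* with 1472 ± 52.6 FPKM, by *Ldha* with 1100 ± 44.5 FPKM and by the enolase *Eno1* with 1085 ± 59.6 FPKM. The means of *Ldha* and *Eno1* lie closer than their SD. At the other end, the muscle phosphoglycerate mutase *Pgam2* had a mean of 0.556 FPKM and the gluconeogenic phosphatase *Fbp1* one of 0.0501 FPKM, and in *Fbp1* 2 of 6 Normoxia mice were at 0. The genes of glycolysis to lactate made up 2.28% ± 0.0988 of all FPKM in Normoxia, and those of the pentose phosphate pathway 0.0693% ± 0.00425 (SD, n = 6 each).

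After 6 h at 7% oxygen, 19 of the 39 rows rose and 4 fell against Normoxia (limma on log2(FPKM + 0.1), adjusted p of at most 0.05, 6 mice against 6). Over all 16962 genes tested, 18.0% rose and 24% fell, while 48.7% of the chosen rows rose and 10.3% fell. Their median log2 fold change was 0.15, against -0.03 over all genes tested. Of the 26 rows from hexokinase to lactate dehydrogenase 18 rose and none fell (median 0.55), and of the 8 pentose phosphate genes 1 rose and 3 fell (median -0.13). The difference between the pathways was not tested. At least 2-fold rises were found in 6 rows and an at least 2-fold fall in 1, against 2.87% and 1.33% of all genes tested.

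**Figure D1:**
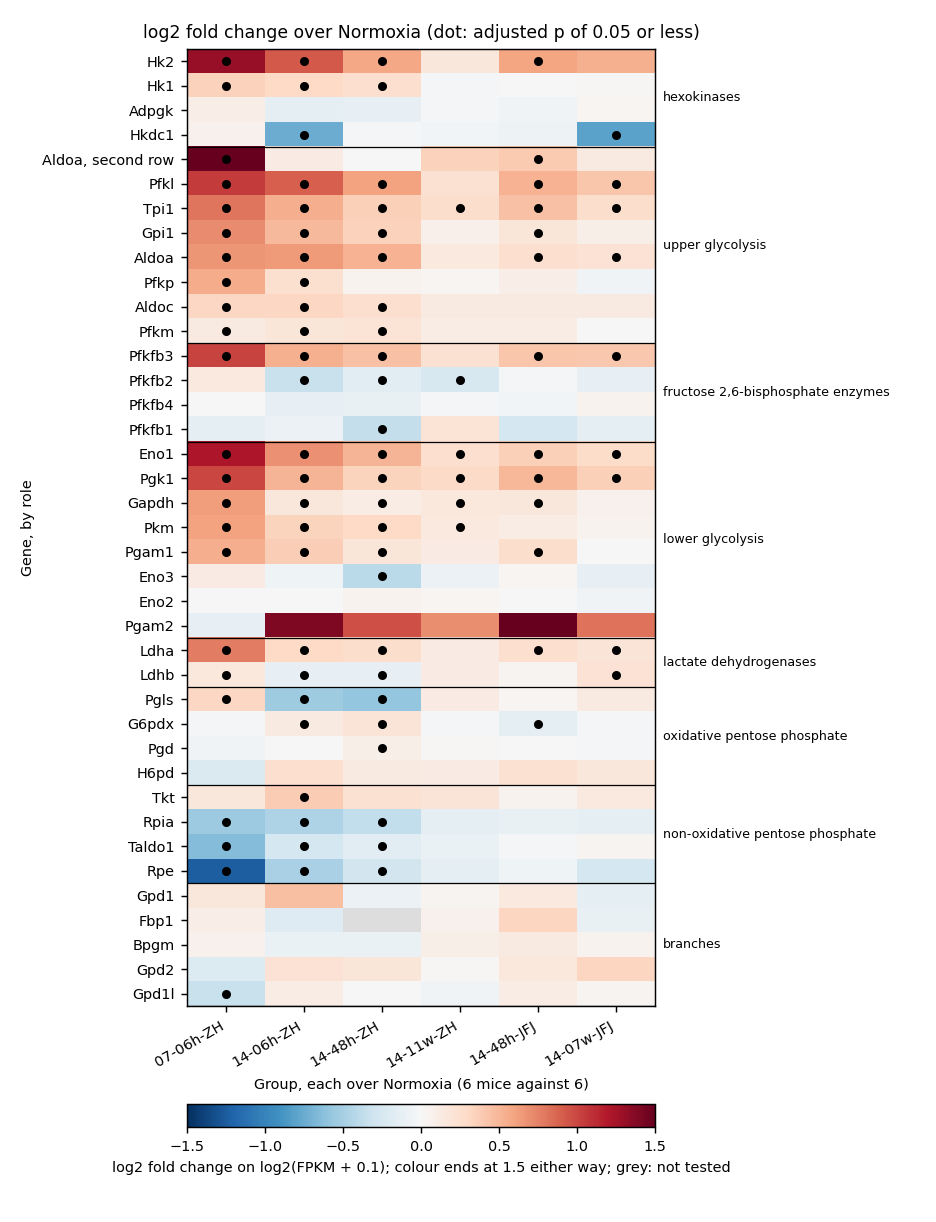
Log2 fold change of each row over Normoxia in the 6 hypoxic groups, by role, with a dot where the adjusted p was at most 0.05. The column of 07-06h-ZH holds the strongest colours among rows with a dot, from 1.51 for the second *Aldoa* row to -1.24 for *Rpe*, and the column of 14-11w-ZH has the fewest dots, 6. *Pgam2*, at low FPKM and with wide errors, is dark without a dot in 14-06h-ZH and 14-48h-JFJ.

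Among the hexokinases, which trap glucose in the cell as glucose 6-phosphate, the inducible form *Hk2* spanned 329.6 to 423 FPKM (median 383) in 07-06h-ZH, against 122 to 172 FPKM (median 161) in Normoxia. All 6 hypoxic mice lay above all normoxic mice, and the log2 fold change was 1.30 ± 0.09 SE, adjusted p = 3.08e-08. The constitutive form *Hk1* was the more abundant in both groups and moved less, with 739 to 835 FPKM (median 776) in 07-06h-ZH, against 586 to 638 FPKM (median 619) in Normoxia (0.34 ± 0.03 SE, adjusted p = 7.98e-07). *Hkdc1*, a hexokinase domain protein, did not pass the test in this group (0.06 ± 0.13 SE, adjusted p = 0.744), nor did the ADP-dependent glucokinase *Adpgk* (0.10 ± 0.08 SE, adjusted p = 0.345).

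All 8 rows of upper glycolysis rose. The liver-type phosphofructokinase *Pfkl*, which commits sugar to glycolysis, spanned 558 to 822 FPKM (median 629.6) in 07-06h-ZH, against 276 to 359.7 FPKM (median 311) in Normoxia (1.05 ± 0.08 SE, adjusted p = 2.05e-07). The highest value was that of replicate 1, and the other 5 mice, at 557.5 to 642 FPKM, also lay above every normoxic mouse. Its paralogs rose less. The platelet type *Pfkp* spanned 628 to 733 FPKM (median 674) in 07-06h-ZH, against 431 to 488 FPKM (median 460.4) in Normoxia (0.56 ± 0.04 SE, adjusted p = 5.60e-08), and the muscle type *Pfkm* 57.8 to 66.9 FPKM (median 62.9) in 07-06h-ZH, against 55.7 to 61.2 FPKM (median 56.7) in Normoxia (0.14 ± 0.04 SE, adjusted p = 0.0151). For *Pfkm* the groups overlapped. *Gpi1*, which turns glucose 6-phosphate into fructose 6-phosphate, spanned 1062 to 1159 FPKM (median 1127) in 07-06h-ZH, against 633 to 737 FPKM (median 684) in Normoxia (0.71 ± 0.04 SE, adjusted p = 1.11e-09).

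The aldolases split fructose 1,6-bisphosphate into 2 triose phosphates. The main *Aldoa* row (ENSMUSG00000030695) spanned 3296 to 3938 FPKM (median 3400) in 07-06h-ZH, against 2078 to 2462 FPKM (median 2156) in Normoxia (0.66 ± 0.06 SE, adjusted p = 1.06e-07). The second *Aldoa* row (ENSMUSG00000114515) spanned 5.93 to 8.5 FPKM (median 7.42) in 07-06h-ZH, against 2.28 to 2.88 FPKM (median 2.53) in Normoxia, and its change was the largest of the 39 rows (1.51 ± 0.10 SE, adjusted p = 1.03e-08), at a level far under that of the main row. In the deposited coordinates both rows overlap *Fam57b*, which lies on the other strand and had a mean of 671 FPKM in Normoxia. It spanned 823.7 to 974.0 FPKM in 07-06h-ZH, against 620.5 to 729.5 FPKM in Normoxia, and its means were 642.2 to 699.1 FPKM in the other hypoxic groups. The part of *Fam57b* in the change of the 2 *Aldoa* rows was not tested. Whether strand was used in counting is not stated, and without it reads of these genes cannot be told apart. The deposited coordinates of the 2 *Aldoa* rows are also exchanged relative to the GENCODE annotation used here, and the rows are therefore named by ID. *Aldoc*, the brain form, spanned 476 to 561 FPKM (median 504) in 07-06h-ZH, against 367 to 467 FPKM (median 415) in Normoxia (0.31 ± 0.06 SE, adjusted p = 3.87e-04). *Tpi1* interconverts the 2 triose phosphates, and it spanned 1430 to 1880 FPKM (median 1542) in 07-06h-ZH, against 831 to 998 FPKM (median 889) in Normoxia (0.81 ± 0.06 SE, adjusted p = 8.5e-08).

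Of the bifunctional enzymes that set the level of fructose 2,6-bisphosphate, the activator of phosphofructokinase, only *Pfkfb3* passed the test at 7% oxygen. It spanned 37.5 to 44.6 FPKM (median 40.7) in 07-06h-ZH, against 18.8 to 21.9 FPKM (median 19.8) in Normoxia (1.02 ± 0.05 SE, adjusted p = 7.18e-10), with no overlap between the groups. *Pfkfb2*, the most abundant of the family in Normoxia, gave 0.15 ± 0.07 SE, adjusted p = 0.098, *Pfkfb4* gave -0.01 ± 0.07 SE, adjusted p = 0.947 and *Pfkfb1* gave -0.14 ± 0.18 SE, adjusted p = 0.554.

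In lower glycolysis 5 of 8 genes rose. *Eno1*, which forms phosphoenolpyruvate, spanned 2402 to 2610 FPKM (median 2508) in 07-06h-ZH, against 1012 to 1158 FPKM (median 1082) in Normoxia, and had the smallest adjusted p of the 39 rows (1.21 ± 0.04 SE, adjusted p = 1.16e-12). The neuronal enolase *Eno2* had 515 to 585 FPKM (median 559) in 07-06h-ZH, against 528 to 581 FPKM (median 554) in Normoxia, and did not pass (0.01 ± 0.04 SE, adjusted p = 0.919, 95% interval -0.07 to 0.08, not adjusted for multiple tests as all intervals here). The muscle enolase *Eno3* did not pass either (0.12 ± 0.06 SE, adjusted p = 0.0821). *Pgk1*, the first ATP-forming step, spanned 318 to 366 FPKM (median 338) in 07-06h-ZH, against 159.7 to 185 FPKM (median 167) in Normoxia (1.0 ± 0.05 SE, adjusted p = 1.12e-10). *Gapdh*, widely used as a reference gene in expression assays, spanned 2197 to 2405 FPKM (median 2214) in 07-06h-ZH, against 1420 to 1561 FPKM (median 1460) in Normoxia (0.62 ± 0.03 SE, adjusted p = 1.05e-09). All 6 hypoxic mice exceeded all normoxic mice. The mutase *Pgam1* spanned 115 to 135 FPKM (median 126) in 07-06h-ZH, against 80.5 to 91.7 FPKM (median 85.6) in Normoxia (0.55 ± 0.05 SE, adjusted p = 1.17e-07), and *Pkm* 3781 to 4047 FPKM (median 3898) in 07-06h-ZH, against 2471 to 2856 FPKM (median 2514) in Normoxia (0.60 ± 0.04 SE, adjusted p = 3.10e-09).

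Both lactate dehydrogenases rose, by unequal amounts. *Ldha*, the subunit that prevails in glycolytic tissue, spanned 1741 to 2024 FPKM (median 1856) in 07-06h-ZH, against 1031 to 1152 FPKM (median 1114) in Normoxia (0.77 ± 0.04 SE, adjusted p = 3.82e-10). *Ldhb* spanned 182 to 199 FPKM (median 190.4) in 07-06h-ZH, against 159.5 to 185 FPKM (median 173) in Normoxia (0.15 ± 0.04 SE, adjusted p = 0.00588), and its groups overlapped.

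Of the 4 genes of the non-oxidative arm of the pentose phosphate pathway 3 fell and none rose. *Rpe*, the ribulose-phosphate epimerase, spanned 7.07 to 9.60 FPKM (median 8.27) in 07-06h-ZH, against 17.7 to 22.0 FPKM (median 18.9) in Normoxia, and fell the most of all 39 rows (-1.24 ± 0.08 SE, adjusted p = 5.24e-09). The highest hypoxic mouse lay below the lowest normoxic mouse. *Taldo1*, the transaldolase, spanned 49.6 to 63.0 FPKM (median 57.7) in 07-06h-ZH, against 88.9 to 92.0 FPKM (median 90.7) in Normoxia (-0.65 ± 0.05 SE, adjusted p = 3.45e-08), again without overlap. The ribose 5-phosphate isomerase *Rpia* fell as well, with 4.0 to 5.46 FPKM (median 4.49) in 07-06h-ZH, against 5.42 to 8.86 FPKM (median 6.87) in Normoxia (-0.55 ± 0.11 SE, adjusted p = 9.89e-04). The transketolase *Tkt* did not pass (0.17 ± 0.09 SE, adjusted p = 0.15).

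In the oxidative arm *Pgls*, the lactonase of the second step, rose, with 25.1 to 31.1 FPKM (median 28.8) in 07-06h-ZH, against 21.4 to 24.1 FPKM (median 23.1) in Normoxia (0.31 ± 0.06 SE, adjusted p = 9.52e-04). The entry enzyme *G6pdx* (-0.03 ± 0.04 SE, adjusted p = 0.49, 95% interval -0.11 to 0.04), the decarboxylating dehydrogenase *Pgd* (-0.05 ± 0.05 SE, adjusted p = 0.475) and *H6pd*, which acts in the endoplasmic reticulum (-0.22 ± 0.17 SE, adjusted p = 0.329), did not pass the test.

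Of the 5 branch genes 1 fell and none rose. *Gpd1l*, a paralog of glycerol 3-phosphate dehydrogenase, spanned 14.6 to 21.1 FPKM (median 14.9) in 07-06h-ZH, against 18.3 to 21.3 FPKM (median 20.1) in Normoxia (-0.34 ± 0.08 SE, adjusted p = 0.00364). Replicate 1 of 07-06h-ZH, at 21.1 FPKM, lay inside the normoxic range and the other 5 mice, at 14.6 to 16.3 FPKM, below it. With a term for Y-linked expression in the fit the fall no longer passed (-0.23, adjusted p = 0.0776). Its relatives *Gpd1* (0.17 ± 0.16 SE, adjusted p = 0.425) and *Gpd2* (-0.20 ± 0.11 SE, adjusted p = 0.154) did not pass. *Bpgm* makes 2,3-bisphosphoglycerate, which in red blood cells lowers the oxygen affinity of haemoglobin. It spanned 55.4 to 67.7 FPKM (median 62.5) in 07-06h-ZH, against 55.5 to 64.0 FPKM (median 57.7) in Normoxia, and did not pass (0.06 ± 0.05 SE, adjusted p = 0.359). The 7 red blood cell markers, 1 of them at 0 in all mice of 07-06h-ZH, summed to 87.6 to 1877 FPKM in 07-06h-ZH, against 23.4 to 555 FPKM in Normoxia. *Fbp1* was at most 0.272 FPKM in 07-06h-ZH and did not pass in the comparisons in which it was tested.

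**Figure D2:**
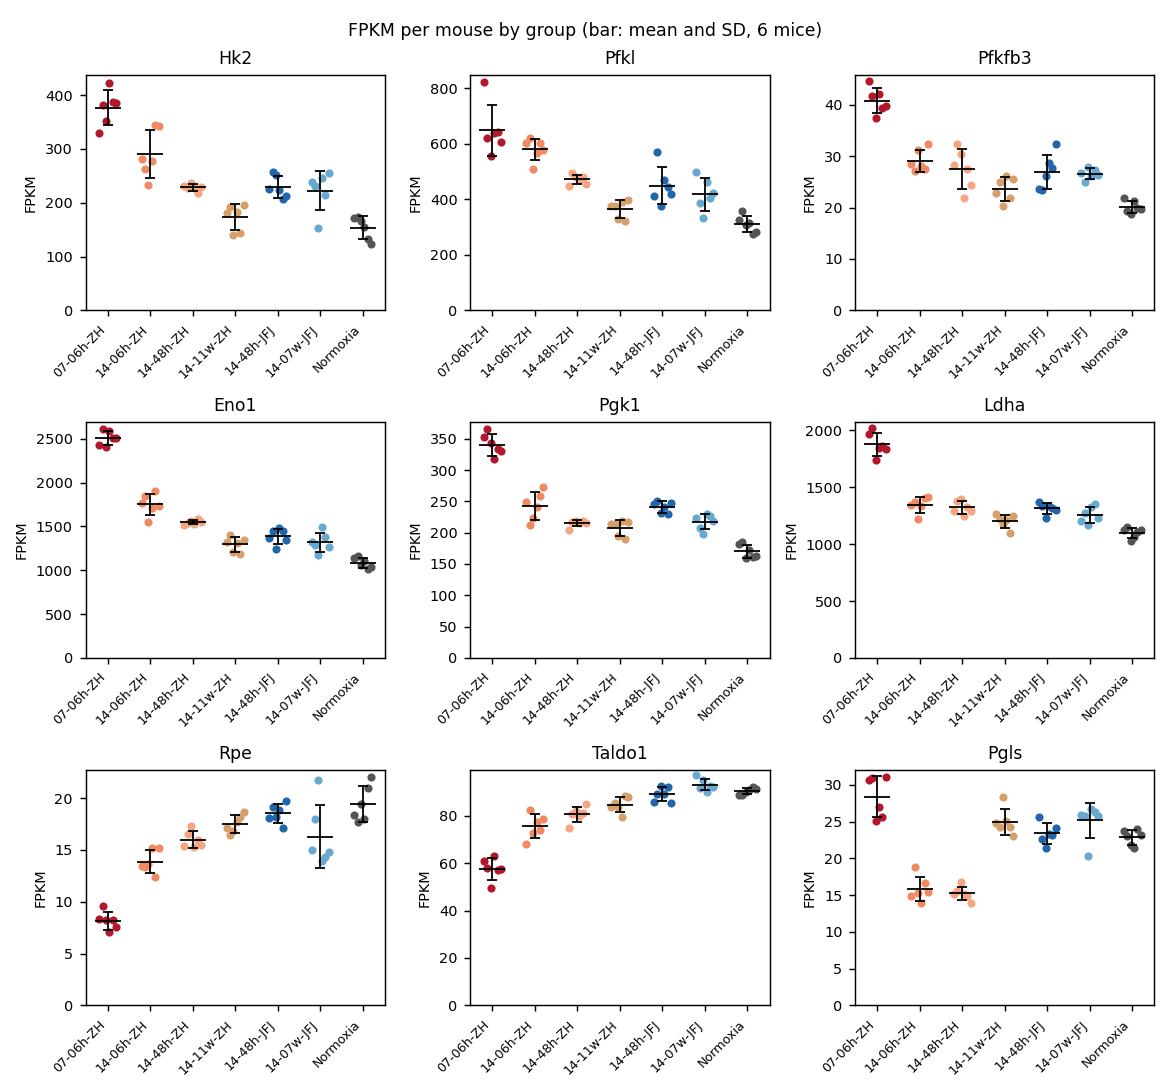
FPKM of 9 genes in each mouse of the 7 groups, with the mean and SD (n = 6). In *Hk2*, *Pfkl*, *Pfkfb3*, *Eno1*, *Pgk1* and *Ldha* every 07-06h-ZH mouse lies above every Normoxia mouse, in *Rpe* and *Taldo1* every one lies below, and *Pgls* is high in 07-06h-ZH and low in 14-06h-ZH and 14-48h-ZH.

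The promoters of 6 of the 7 rows that changed at least 2-fold at 7% oxygen are shown because hypoxia-inducible factors bind a short core motif, which reads ACGTG with GCGTG as its variant (on the other strand CACGT with CACGC as variant). Windows of 300 bases, 250 before to 50 after each annotated start, were taken from RefSeq (GRCm38.p6), and 37 of the 38 symbols had at least 1 window (*Gpd1* had none). The core was looked for on both strands, where a CACGTG, the E-box of other factors, counts on each strand. At least 1 core was found in 43.8% of the 32851 windows of all genes (19.6% with ACGTG and 32.4% with GCGTG, in either orientation) and in 39 of the 56 windows of the chosen genes (69.6%). It was found in 24 of 30 windows of the symbols that rose at 7% oxygen in 3 of 4 windows of those that fell and in 12 of 22 windows of those that did not pass. By symbol, 16 of 18 that rose, 3 of 4 that fell and 10 of 15 that did not pass had a core in at least 1 window. The second *Aldoa* row, which changed the most, is not shown because the deposited coordinates of both *Aldoa* rows are exchanged. The 3 windows of that symbol hold 0, 1 and 1 cores, and the one nearest to the deposited start of the second row holds 0. Windows of 1 gene are not independent of each other, and base composition was not matched, so these shares are a description only. In the sequences that follow, each the window nearest to the deposited start of the gene, the core is in capitals. *Hk2* (chr6:82774405-82774704, minus strand) holds 2, *Eno1* (chr4:150236458-150236757, plus strand) 2, *Pfkl* (chr10:78009758-78010057, minus strand) 1, *Pfkfb3* (chr2:11553880-11554179, minus strand) 1 and *Pgk1* (chrX:106186850-106187149, plus strand) 2. *Rpe* (chr1:66700581-66700880, plus strand), the only member that fell at least 2-fold, holds none in this window.
Hk2: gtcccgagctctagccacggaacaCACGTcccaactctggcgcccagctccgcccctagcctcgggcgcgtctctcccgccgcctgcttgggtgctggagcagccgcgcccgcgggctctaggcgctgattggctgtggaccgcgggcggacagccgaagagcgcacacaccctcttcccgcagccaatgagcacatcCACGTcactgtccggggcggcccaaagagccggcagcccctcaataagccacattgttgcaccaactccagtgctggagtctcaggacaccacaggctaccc
Eno1: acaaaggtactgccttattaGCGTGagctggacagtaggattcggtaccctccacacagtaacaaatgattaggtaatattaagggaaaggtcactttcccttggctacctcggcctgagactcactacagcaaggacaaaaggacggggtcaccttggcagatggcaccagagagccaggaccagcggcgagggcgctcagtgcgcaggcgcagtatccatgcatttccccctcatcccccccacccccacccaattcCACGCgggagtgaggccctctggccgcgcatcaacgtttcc
Pfkl: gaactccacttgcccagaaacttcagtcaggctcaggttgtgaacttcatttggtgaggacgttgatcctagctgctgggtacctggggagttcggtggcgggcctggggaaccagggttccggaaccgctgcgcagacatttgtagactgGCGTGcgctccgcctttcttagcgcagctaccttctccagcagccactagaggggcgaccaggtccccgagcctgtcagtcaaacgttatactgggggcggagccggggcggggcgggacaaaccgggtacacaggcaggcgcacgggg
Pfkfb3: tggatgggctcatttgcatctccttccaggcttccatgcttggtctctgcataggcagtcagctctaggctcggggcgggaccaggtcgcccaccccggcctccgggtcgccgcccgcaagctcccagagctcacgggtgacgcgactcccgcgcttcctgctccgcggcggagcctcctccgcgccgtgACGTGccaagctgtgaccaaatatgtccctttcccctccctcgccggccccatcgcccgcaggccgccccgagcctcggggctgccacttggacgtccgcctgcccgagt
Pgk1: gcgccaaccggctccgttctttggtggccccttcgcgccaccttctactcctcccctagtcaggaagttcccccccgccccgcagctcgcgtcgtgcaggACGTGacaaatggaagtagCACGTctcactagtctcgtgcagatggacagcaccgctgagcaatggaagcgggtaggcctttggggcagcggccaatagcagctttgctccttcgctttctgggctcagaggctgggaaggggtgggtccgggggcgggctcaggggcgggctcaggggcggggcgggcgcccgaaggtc
Rpe: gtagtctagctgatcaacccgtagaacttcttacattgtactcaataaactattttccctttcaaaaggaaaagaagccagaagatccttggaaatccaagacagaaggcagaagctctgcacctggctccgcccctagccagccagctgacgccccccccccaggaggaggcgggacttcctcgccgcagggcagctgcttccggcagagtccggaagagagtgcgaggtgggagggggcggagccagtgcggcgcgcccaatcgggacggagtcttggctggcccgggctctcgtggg

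After 6 h at 14% oxygen, 18 of 39 rows rose and 7 fell against Normoxia, while 9.54% of the 17108 genes tested rose and 24.8% fell. The median was 0.18 over the chosen rows and -0.05 over all genes tested. No row reached a 2-fold change with a call. *Hk2* spanned 233 to 345 FPKM (median 279) in 14-06h-ZH, against 122 to 172 FPKM (median 161) in Normoxia (0.92 ± 0.12 SE, adjusted p = 7.21e-05). *Pfkl* spanned 509.6 to 621 FPKM (median 589.7) in 14-06h-ZH, against 276 to 359.7 FPKM (median 311) in Normoxia (0.90 ± 0.06 SE, adjusted p = 5.16e-08). Neither gene's groups overlapped. *Eno1* followed with 1553 to 1908 FPKM (median 1750) in 14-06h-ZH, against 1012 to 1158 FPKM (median 1082) in Normoxia (0.69 ± 0.05 SE, adjusted p = 6.55e-08), and *Aldoa* with 3107 to 3823 FPKM (median 3476) in 14-06h-ZH, against 2078 to 2462 FPKM (median 2156) in Normoxia (0.64 ± 0.05 SE, adjusted p = 4.47e-07).

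*Tpi1* spanned 1174 to 1382 FPKM (median 1344) in 14-06h-ZH, against 831 to 998 FPKM (median 889) in Normoxia (0.54 ± 0.05 SE, adjusted p = 1.05e-06). *Pfkfb3* spanned 27.1 to 32.5 FPKM (median 28.3) in 14-06h-ZH, against 18.8 to 21.9 FPKM (median 19.8) in Normoxia (0.53 ± 0.05 SE, adjusted p = 2.44e-06), and *Pgk1* 212 to 274 FPKM (median 245) in 14-06h-ZH, against 159.7 to 185 FPKM (median 167) in Normoxia (0.51 ± 0.06 SE, adjusted p = 7.00e-06). In these 3 genes and in *Gpi1* every hypoxic mouse lay above every normoxic mouse. *Gpi1* spanned 858 to 1032 FPKM (median 955) in 14-06h-ZH, against 633 to 737 FPKM (median 684) in Normoxia (0.49 ± 0.05 SE, adjusted p = 1.53e-06). *Pgam1*, *Pkm*, *Hk1*, *Ldha*, *Aldoc*, *Pfkp*, *Pfkm* and *Gapdh* rose by log2 0.17 to 0.37. In the pentose phosphate pathway *Tkt* (0.38 ± 0.14 SE, adjusted p = 0.0481) and *G6pdx* (0.14 ± 0.04 SE, adjusted p = 0.00858) rose. The rise of *Tkt* was lost in 8 of the 12 fits that left out 1 mouse each (adjusted p = 0.0668 to 0.0985), and those of *Tkt*, *G6pdx* and *Gapdh* were lost with a term for Y-linked expression. *Tkt* was 223 to 229.7 FPKM in replicates 3, 4 and 6 of 14-06h-ZH and 157 to 188 FPKM in the other 3, against 184 and 194 FPKM in replicates 4 and 1 of Normoxia and 133 to 138 FPKM in the other 4. The corneal and conjunctival epithelium markers summed to 47.5 to 64.3 FPKM in those 3 mice of 14-06h-ZH and 8.36 to 16.7 FPKM in the other 3, against 40.2 and 38.95 FPKM in those replicates of Normoxia and 4.16 to 8.26 FPKM in the other 4. In both groups the mice high in *Tkt* were the mice high in these markers, whose part in the rise was not tested.

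The 7 falling members came from several roles. *Hkdc1* spanned 3.79 to 5.62 FPKM (median 5.05) in 14-06h-ZH, against 7.28 to 9.37 FPKM (median 7.87) in Normoxia (-0.74 ± 0.10 SE, adjusted p = 4.04e-05), without overlap. *Pgls* spanned 13.9 to 18.8 FPKM (median 15.4) in 14-06h-ZH, against 21.4 to 24.1 FPKM (median 23.1) in Normoxia (-0.53 ± 0.06 SE, adjusted p = 9.44e-06), a direction opposite to that at 7% oxygen. *Rpe* had 12.3 to 15.2 FPKM (median 13.6) in 14-06h-ZH, against 17.7 to 22.0 FPKM (median 18.9) in Normoxia (-0.48 ± 0.07 SE, adjusted p = 4e-05). Both lay below Normoxia in every mouse. *Rpia* spanned 4.03 to 5.89 FPKM (median 4.92) in 14-06h-ZH, against 5.42 to 8.86 FPKM (median 6.87) in Normoxia (-0.46 ± 0.11 SE, adjusted p = 0.00404), and its groups overlapped. *Taldo1* spanned 68.0 to 82.5 FPKM (median 75.7) in 14-06h-ZH, against 88.9 to 92.0 FPKM (median 90.7) in Normoxia (-0.26 ± 0.04 SE, adjusted p = 1.43e-04), and *Pfkfb2* 93.0 to 127 FPKM (median 108) in 14-06h-ZH, against 128 to 148 FPKM (median 139) in Normoxia (-0.33 ± 0.08 SE, adjusted p = 0.00358), neither with overlap. *Ldhb* spanned 149 to 170.4 FPKM (median 155) in 14-06h-ZH, against 159.5 to 185 FPKM (median 173) in Normoxia (-0.12 ± 0.04 SE, adjusted p = 0.0324). With edgeR the calls of *Rpia* (adjusted p = 0.0923) and *Pfkfb2* (adjusted p = 0.127) were lost. The call of *Ldhb* was lost with median-of-ratios scaling (-0.06, adjusted p = 0.341) and in 8 of the 12 fits that left out 1 mouse each (adjusted p = 0.0509 to 0.0754).

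The oxygen dose was compared directly between the groups of 6 h, which come from different code series. At 7% against 14% oxygen 18 of 39 rows were higher and 7 lower, while 25.8% of the 17048 genes tested were higher and 19.7% lower, with medians of 0.17 over the chosen rows and 0.03 over all genes tested. Of the 25 calls 24 passed in each of the 12 alternative analyses. That of *Pgam2* passed in 11 and was not tested in the one with a mean of at least 1 FPKM. In the same comparison 8 of 9 lens markers and 5 of 7 corneal and conjunctival epithelium markers tested were lower at 7% oxygen. *Eno1* (0.52 ± 0.05 SE, adjusted p = 1.75e-07), *Pfkfb3* (0.49 ± 0.06 SE, adjusted p = 3.19e-06), *Pgk1* (0.49 ± 0.06 SE, adjusted p = 3.35e-06), *Ldha* (0.48 ± 0.04 SE, adjusted p = 3.66e-07), *Gapdh* (0.45 ± 0.04 SE, adjusted p = 4.39e-07) and *Hk2* (0.39 ± 0.09 SE, adjusted p = 0.00269) were higher at 7% oxygen. For the first 5 of these the groups of 6 mice did not overlap. The second *Aldoa* row had the largest difference (1.39 ± 0.10 SE, adjusted p = 2.60e-08).

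Not every member that rose in both groups passed the test between the doses. *Aldoa* was 3296 to 3938 FPKM (median 3400) in 07-06h-ZH, against 3107 to 3823 FPKM (median 3476) in 14-06h-ZH, with a difference of log2 0.02 ± 0.06 SE, adjusted p = 0.759 (95% interval -0.09 to 0.14). The difference was 0.00 ± 0.05 SE, adjusted p = 0.986 for *Aldoc* (interval -0.11 to 0.12), 0.05 ± 0.04 SE, adjusted p = 0.394 for *Hk1* (interval -0.04 to 0.14) and 0.15 ± 0.07 SE, adjusted p = 0.106 for *Pfkl* (interval 0.00 to 0.31). The upper ends of these 4 intervals lie below the difference of *Eno1*. *Pgls* was higher at 7% oxygen by 0.84 ± 0.08 SE, adjusted p = 3.04e-07, and *Hkdc1* by 0.80 ± 0.15 SE, adjusted p = 3.45e-04. *Rpe* (-0.76 ± 0.08 SE, adjusted p = 9.36e-07), *Taldo1* (-0.39 ± 0.06 SE, adjusted p = 4.26e-05), *Gpd1l* (-0.44 ± 0.09 SE, adjusted p = 4.77e-04), *Gpd2* (-0.42 ± 0.10 SE, adjusted p = 0.00314), *G6pdx* (-0.17 ± 0.04 SE, adjusted p = 0.00315), *H6pd* (-0.47 ± 0.12 SE, adjusted p = 0.00473) and the low *Pgam2* (-1.52 ± 0.36 SE, adjusted p = 0.00288) were lower.

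**Figure D3:**
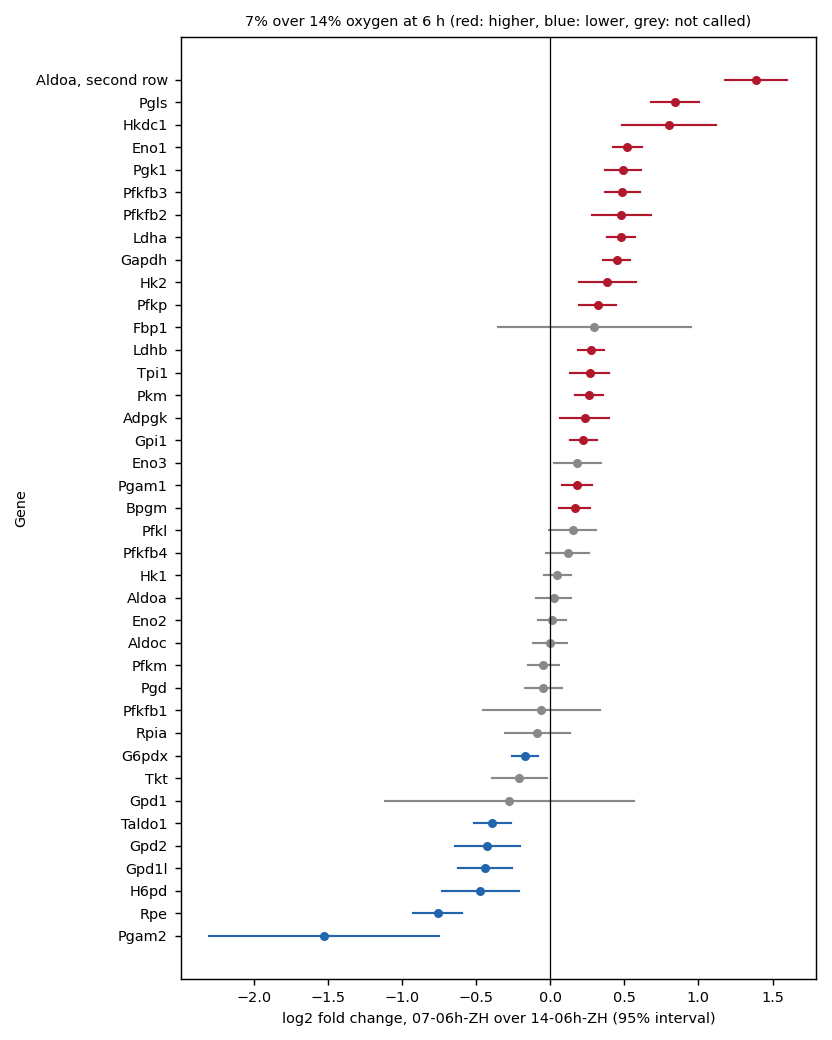
Log2 fold change of each row at 7% over 14% oxygen after 6 h, with its 95% interval (limma, 6 mice against 6; red higher, blue lower, grey not called). The second *Aldoa* row stands at the top with 1.39 and *Pgam2* at the bottom with -1.52, while the intervals of *Aldoa*, *Aldoc*, *Hk1* and *Eno2* lie around 0.

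After 48 h at 14% oxygen, 17 of the 38 rows tested rose and 8 fell against Normoxia, while 9.48% of the 17041 genes tested rose and 26.7% fell (medians 0.13 over the chosen rows and -0.08 over all genes). With median-of-ratios scaling, under which the median of all genes was -0.01, the split was 20 and 5. *Pfkl* spanned 448 to 495 FPKM (median 475) in 14-48h-ZH, against 276 to 359.7 FPKM (median 311) in Normoxia (0.60 ± 0.05 SE, adjusted p = 5.09e-07). *Hk2* spanned 218 to 236 FPKM (median 228) in 14-48h-ZH, against 122 to 172 FPKM (median 161) in Normoxia (0.59 ± 0.08 SE, adjusted p = 4.64e-05). Neither gene's groups overlapped. *Aldoa* spanned 3098 to 3341 FPKM (median 3213) in 14-48h-ZH, against 2078 to 2462 FPKM (median 2156) in Normoxia (0.53 ± 0.04 SE, adjusted p = 2.08e-07), and *Eno1* 1520 to 1586 FPKM (median 1545) in 14-48h-ZH, against 1012 to 1158 FPKM (median 1082) in Normoxia (0.51 ± 0.03 SE, adjusted p = 2.40e-08). *Pfkfb3* spanned 22.0 to 32.5 FPKM (median 27.9) in 14-48h-ZH, against 18.8 to 21.9 FPKM (median 19.8) in Normoxia (0.44 ± 0.08 SE, adjusted p = 4.02e-04), and *Tpi1* 1094 to 1213 FPKM (median 1158) in 14-48h-ZH, against 831 to 998 FPKM (median 889) in Normoxia (0.36 ± 0.04 SE, adjusted p = 1.25e-05). These 4 and *Gpi1* (0.35 ± 0.04 SE, adjusted p = 2.15e-06), *Pgk1* (0.34 ± 0.04 SE, adjusted p = 4.31e-06), *Pkm* (0.30 ± 0.03 SE, adjusted p = 3.35e-06) and *Ldha* (0.27 ± 0.03 SE, adjusted p = 1.29e-05) rose without overlap between the groups. The entry enzyme of the oxidative pentose phosphate arm, *G6pdx*, rose as well, with 79.2 to 84.4 FPKM (median 81.0) in 14-48h-ZH, against 69.3 to 74.9 FPKM (median 70.3) in Normoxia (0.20 ± 0.03 SE, adjusted p = 4.83e-05), and *Pgd* by 0.09 ± 0.03 SE, adjusted p = 0.0274, a call lost in 3 of the 12 alternative analyses.

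*Pgls* had the largest fall at 48 h, with 13.9 to 16.8 FPKM (median 15.2) in 14-48h-ZH, against 21.4 to 24.1 FPKM (median 23.1) in Normoxia (-0.58 ± 0.05 SE, adjusted p = 2.35e-07). *Eno3* spanned 18.3 to 27.6 FPKM (median 23.5) in 14-48h-ZH, against 27.7 to 35.5 FPKM (median 30.4) in Normoxia (-0.40 ± 0.09 SE, adjusted p = 0.00185). In both genes the groups did not overlap. *Rpia* spanned 4.97 to 5.70 FPKM (median 5.19) in 14-48h-ZH, against 5.42 to 8.86 FPKM (median 6.87) in Normoxia (-0.37 ± 0.10 SE, adjusted p = 0.00622), *Rpe* 15.2 to 17.3 FPKM (median 15.7) in 14-48h-ZH, against 17.7 to 22.0 FPKM (median 18.9) in Normoxia (-0.27 ± 0.06 SE, adjusted p = 0.00129) and *Taldo1* 75.0 to 84.8 FPKM (median 81.0) in 14-48h-ZH, against 88.9 to 92.0 FPKM (median 90.7) in Normoxia (-0.17 ± 0.03 SE, adjusted p = 4.04e-04), so that 3 of the 4 genes of the non-oxidative arm were lower than in Normoxia. The call of *Rpia* was lost with edgeR (adjusted p = 0.122) and with a term for Y-linked expression (adjusted p = 0.0633), and that of *Taldo1* with edgeR (adjusted p = 0.105). *Pfkfb1* spanned 1.15 to 1.69 FPKM (median 1.56) in 14-48h-ZH, against 1.51 to 2.18 FPKM (median 2.01) in Normoxia (-0.35 ± 0.12 SE, adjusted p = 0.0291), *Pfkfb2* 118 to 129 FPKM (median 124) in 14-48h-ZH, against 128 to 148 FPKM (median 139) in Normoxia (-0.15 ± 0.04 SE, adjusted p = 0.00635) and *Ldhb* 146 to 162 FPKM (median 158) in 14-48h-ZH, against 159.5 to 185 FPKM (median 173) in Normoxia (-0.12 ± 0.04 SE, adjusted p = 0.0188). In these 3 the groups overlapped, and their falls were lost with median-of-ratios scaling (adjusted p = 0.0847 for *Pfkfb1*, 0.197 for *Pfkfb2* and 0.477 for *Ldhb*).

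Between 6 h and 48 h of 14% oxygen, a comparison within 1 code series, 1 row rose and 4 fell of the 38 tested, while 0.740% of the 17172 genes tested rose and 0.932% fell. *Pfkl* was 448 to 495 FPKM (median 475) in 14-48h-ZH, against 509.6 to 621 FPKM (median 589.7) in 14-06h-ZH (-0.30 ± 0.04 SE, adjusted p = 0.00244), and the groups did not overlap. *Tpi1* (-0.19 ± 0.04 SE, adjusted p = 0.032), *Eno1* (-0.18 ± 0.04 SE, adjusted p = 0.0406) and *Pgam1* (-0.18 ± 0.04 SE, adjusted p = 0.0165) were lower too. These 3 falls were lost in 2 to 7 of the 12 alternative analyses, and that of *Pfkl* in 1. *Hkdc1* rose, with 6.91 to 8.71 FPKM (median 8.10) in 14-48h-ZH, against 3.79 to 5.62 FPKM (median 5.05) in 14-06h-ZH (0.72 ± 0.10 SE, adjusted p = 0.00127), and was close to Normoxia at 48 h (-0.02 ± 0.07 SE, adjusted p = 0.896). The call of *Hkdc1* held in each of the 12 alternatives. *Hk2* did not pass (-0.33 ± 0.08 SE, adjusted p = 0.064).

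After 11 weeks at 14% oxygen, the other comparison within 1 code series, 5 rows rose and 1 fell against Normoxia, while 2.02% of the 17092 genes tested rose and 1.94% fell. *Pgk1* spanned 189 to 219 FPKM (median 213) in 14-11w-ZH, against 159.7 to 185 FPKM (median 167) in Normoxia (0.29 ± 0.05 SE, adjusted p = 0.00616). *Eno1* spanned 1181 to 1406 FPKM (median 1320) in 14-11w-ZH, against 1012 to 1158 FPKM (median 1082) in Normoxia (0.26 ± 0.04 SE, adjusted p = 0.00797). *Tpi1* spanned 1009 to 1190 FPKM (median 1089) in 14-11w-ZH, against 831 to 998 FPKM (median 889) in Normoxia (0.26 ± 0.05 SE, adjusted p = 0.0115), and *Gapdh* 1576 to 1723 FPKM (median 1634) in 14-11w-ZH, against 1420 to 1561 FPKM (median 1460) in Normoxia (0.16 ± 0.03 SE, adjusted p = 0.0113). In these 4 genes every hypoxic mouse lay above every normoxic mouse. *Pkm* spanned 2633 to 3026 FPKM (median 2882) in 14-11w-ZH, against 2471 to 2856 FPKM (median 2514) in Normoxia (0.15 ± 0.04 SE, adjusted p = 0.0489), a call that was lost in 9 of the 12 fits that left out 1 mouse each (adjusted p = 0.0557 to 0.115). *Pfkfb2* fell, with 115 to 119 FPKM (median 117) in 14-11w-ZH, against 128 to 148 FPKM (median 139) in Normoxia (-0.24 ± 0.04 SE, adjusted p = 0.00616), without overlap. Of the 6 calls, those of *Pfkfb2* and *Pgk1* passed in each of the 11 alternative analyses run, and each of the other 4 was lost in at least 1. *Hk2*, among the most raised genes after 6 h, had 141 to 195 FPKM (median 182) in 14-11w-ZH, against 122 to 172 FPKM (median 161) in Normoxia, and did not pass (0.17 ± 0.11 SE, adjusted p = 0.46, 95% interval -0.08 to 0.42). None of the 8 pentose phosphate genes passed.

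In the hypobaric groups the rise was again led by glycolytic genes. After 48 h at 3450 m, 12 of 39 rows rose and 1 fell against Normoxia, while 2.67% of the 17100 genes tested rose and 2.65% fell. *Hk2* spanned 207 to 256 FPKM (median 225) in 14-48h-JFJ, against 122 to 172 FPKM (median 161) in Normoxia (0.59 ± 0.09 SE, adjusted p = 0.00297). *Pgk1* spanned 229 to 251 FPKM (median 244) in 14-48h-JFJ, against 159.7 to 185 FPKM (median 167) in Normoxia, the smallest adjusted p of the rows here (0.50 ± 0.04 SE, adjusted p = 9.85e-06). Neither gene's groups overlapped. *Pfkl* spanned 376 to 569.5 FPKM (median 432) in 14-48h-JFJ, against 276 to 359.7 FPKM (median 311) in Normoxia (0.52 ± 0.09 SE, adjusted p = 0.00784), *Tpi1* 1135 to 1289 FPKM (median 1225) in 14-48h-JFJ, against 831 to 998 FPKM (median 889) in Normoxia (0.43 ± 0.05 SE, adjusted p = 1.32e-04) and *Pfkfb3* 23.5 to 32.3 FPKM (median 27.0) in 14-48h-JFJ, against 18.8 to 21.9 FPKM (median 19.8) in Normoxia (0.41 ± 0.07 SE, adjusted p = 0.00389). *Eno1* spanned 1239 to 1477 FPKM (median 1403) in 14-48h-JFJ, against 1012 to 1158 FPKM (median 1082) in Normoxia (0.35 ± 0.05 SE, adjusted p = 4.89e-04), *Ldha* 1232 to 1369 FPKM (median 1324) in 14-48h-JFJ, against 1031 to 1152 FPKM (median 1114) in Normoxia (0.26 ± 0.03 SE, adjusted p = 5.13e-04) and *Pgam1* 95.5 to 109.7 FPKM (median 104) in 14-48h-JFJ, against 80.5 to 91.7 FPKM (median 85.6) in Normoxia (0.26 ± 0.04 SE, adjusted p = 0.00307). In these 6 every mouse at 3450 m lay above every normoxic mouse. *Aldoa* spanned 2446 to 2794 FPKM (median 2716) in 14-48h-JFJ, against 2078 to 2462 FPKM (median 2156) in Normoxia (0.26 ± 0.05 SE, adjusted p = 0.00656), with overlap, and the second *Aldoa* row 2.93 to 4.21 FPKM (median 3.24) in 14-48h-JFJ, against 2.28 to 2.88 FPKM (median 2.53) in Normoxia (0.39 ± 0.10 SE, adjusted p = 0.0366), without. *Gpi1* (0.18 ± 0.04 SE, adjusted p = 0.0275) and *Gapdh* (0.17 ± 0.03 SE, adjusted p = 0.0118) rose with overlap. *G6pdx* fell, with 61.1 to 68.4 FPKM (median 64.2) in 14-48h-JFJ, against 69.3 to 74.9 FPKM (median 70.3) in Normoxia (-0.14 ± 0.03 SE, adjusted p = 0.0267). The call of *G6pdx* was lost in 4 of the 12 fits that left out 1 mouse each (adjusted p = 0.0509 to 0.0574), that of *Gpi1* in 6 and that of the second *Aldoa* row in 9. With a term for Y-linked expression 6 calls were left, and those of *Pfkl*, *Pfkfb3*, both *Aldoa* rows, *Gpi1*, *Gapdh* and *G6pdx* were lost. The calls of *Eno1*, *Ldha*, *Pgam1*, *Pgk1* and *Tpi1* passed in each of the 12 alternative analyses. That of *Hk2* was lost with edgeR (0.56, adjusted p = 0.0635).

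After 7 weeks at 3450 m, 8 of 39 rows rose and 1 fell, while 1.47% of the 16984 genes tested rose and 0.577% fell. *Pfkl* spanned 332 to 498 FPKM (median 414) in 14-07w-JFJ, against 276 to 359.7 FPKM (median 311) in Normoxia (0.42 ± 0.09 SE, adjusted p = 0.0334). *Pfkfb3* spanned 24.9 to 28.0 FPKM (median 26.5) in 14-07w-JFJ, against 18.8 to 21.9 FPKM (median 19.8) in Normoxia (0.40 ± 0.05 SE, adjusted p = 6.33e-04), *Pgk1* 198 to 230.1 FPKM (median 221) in 14-07w-JFJ, against 159.7 to 185 FPKM (median 167) in Normoxia (0.35 ± 0.05 SE, adjusted p = 0.00109) and *Eno1* 1169 to 1489 FPKM (median 1302) in 14-07w-JFJ, against 1012 to 1158 FPKM (median 1082) in Normoxia (0.28 ± 0.05 SE, adjusted p = 0.0116). The last 3 did not overlap with Normoxia, while *Pfkl* did. *Tpi1* spanned 946 to 1185 FPKM (median 1101) in 14-07w-JFJ, against 831 to 998 FPKM (median 889) in Normoxia (0.26 ± 0.06 SE, adjusted p = 0.0248) and *Aldoa* 2264 to 2806 FPKM (median 2641) in 14-07w-JFJ, against 2078 to 2462 FPKM (median 2156) in Normoxia (0.22 ± 0.06 SE, adjusted p = 0.0493), both with overlap. *Ldhb* spanned 189 to 207 FPKM (median 199) in 14-07w-JFJ, against 159.5 to 185 FPKM (median 173) in Normoxia (0.21 ± 0.04 SE, adjusted p = 0.0103) and *Ldha* 1168 to 1351 FPKM (median 1252) in 14-07w-JFJ, against 1031 to 1152 FPKM (median 1114) in Normoxia (0.19 ± 0.04 SE, adjusted p = 0.0195), both without. Without replicate 4 of Normoxia 4 rows rose and 1 fell, and the calls of *Aldoa*, *Ldha*, *Pfkl* and *Tpi1* were lost. Over all 12 fits that left out 1 mouse each, *Aldoa* was lost in 9, *Pfkl* in 8, *Tpi1* in 5 and *Ldha* in 1. With a term for Y-linked expression these 4 and *Eno1* were lost. *Hkdc1* fell, with 3.96 to 5.11 FPKM (median 4.58) in 14-07w-JFJ, against 7.28 to 9.37 FPKM (median 7.87) in Normoxia (-0.81 ± 0.09 SE, adjusted p = 3.00e-04), and the groups did not overlap. The calls of *Hkdc1*, *Pfkfb3* and *Pgk1* passed in each of the 12 alternative analyses and without each mouse in turn. *Hk2* spanned 152.4 to 254.5 FPKM (median 234.6) in 14-07w-JFJ, against 122.4 to 172.5 FPKM (median 160.6) in Normoxia. Its log2 fold change of 0.53 was above that of *Pfkl* but did not pass.

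The hypobaric groups were compared with the normobaric groups of 14% oxygen. The short exposures both lasted 48 h, but the long ones lasted 7 weeks (JFJ) and 11 weeks (ZH). After 48 h, 11 of 38 rows were higher and 7 lower in 14-48h-JFJ than in 14-48h-ZH, while 30.9% of the 17099 genes tested were higher and 8.66% lower. The median over all genes was 0.11, above that of the chosen rows (0.06). The direction of the smaller differences depended on the scaling. With median-of-ratios scaling, under which the median of all genes was 0.02, 3 rows were higher and 12 lower, and 9 rows, none of them called, changed sign. The 8 rod markers examined summed to 15340 to 18220 FPKM in 14-48h-JFJ, against 18930 to 21800 FPKM in 14-48h-ZH. Of 10 pigment epithelium markers 9 were higher in 14-48h-JFJ and none lower. They summed to 43.4 to 791 FPKM in 14-48h-JFJ, against 25.7 to 60.4 FPKM in 14-48h-ZH. Of 6 red blood cell markers tested 5 were higher and none lower. All 7 summed to 75.2 to 418 FPKM in 14-48h-JFJ, against 47.85 to 86.3 FPKM in 14-48h-ZH. The part of these cell types in the differences, that of *Bpgm* included, was not tested.

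Under both scalings *Aldoa* was lower at 3450 m, with 2446 to 2794 FPKM (median 2716) in 14-48h-JFJ, against 3098 to 3341 FPKM (median 3213) in 14-48h-ZH (-0.27 ± 0.03 SE, adjusted p = 1.41e-05). The same held for *G6pdx*, with 61.1 to 68.4 FPKM (median 64.2) in 14-48h-JFJ, against 79.2 to 84.4 FPKM (median 81.0) in 14-48h-ZH (-0.34 ± 0.03 SE, adjusted p = 6.60e-07), and for *Hk1*, with 571 to 662 FPKM (median 616) in 14-48h-JFJ, against 707 to 763 FPKM (median 738) in 14-48h-ZH (-0.26 ± 0.04 SE, adjusted p = 2.21e-05). *Pkm* (-0.19 ± 0.03 SE, adjusted p = 2.49e-04), *Gpi1* (-0.17 ± 0.04 SE, adjusted p = 0.00109) and *Eno1* (-0.16 ± 0.04 SE, adjusted p = 0.00297) were lower under both as well. *Pgls* was higher, with 21.5 to 25.7 FPKM (median 23.3) in 14-48h-JFJ, against 13.9 to 16.8 FPKM (median 15.2) in 14-48h-ZH (0.61 ± 0.05 SE, adjusted p = 1.85e-07), and so was *Bpgm* (0.23 ± 0.03 SE, adjusted p = 4.10e-05). *Hk2* did not pass under either scaling (0.00 with an interval of -0.10 to 0.10, and -0.10 with median-of-ratios scaling).

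**Figure D4:**
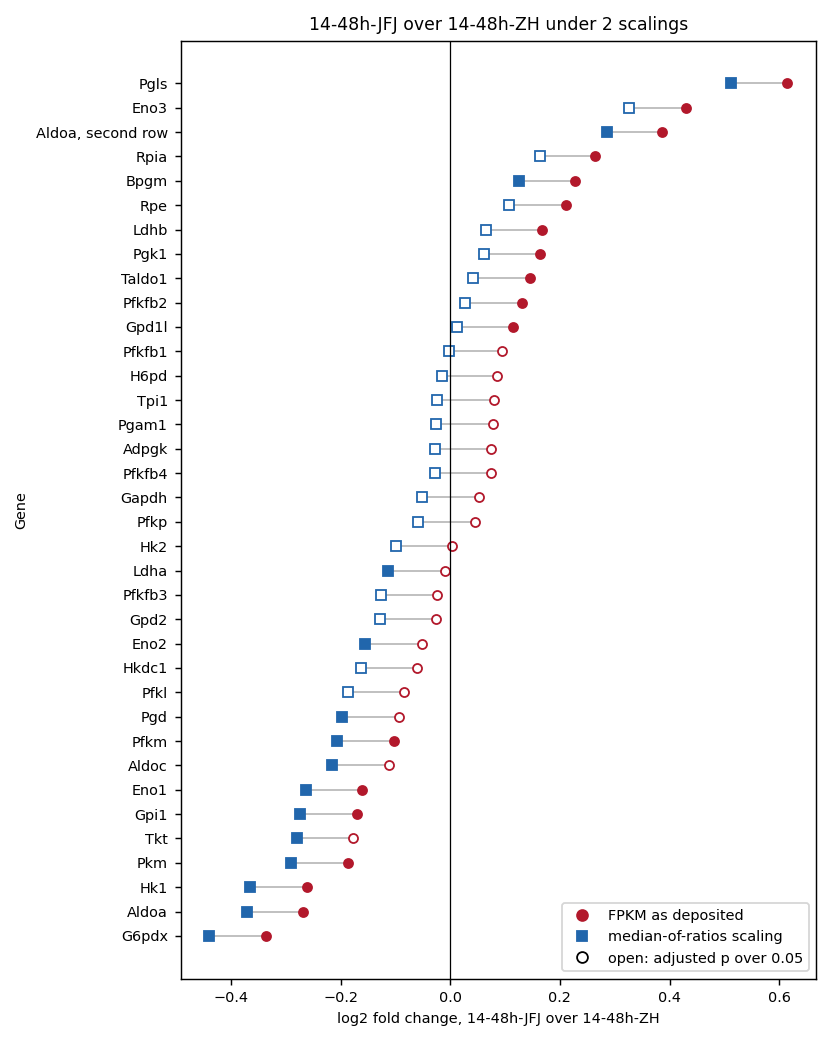
Log2 fold change of 36 rows in 14-48h-JFJ over 14-48h-ZH, from FPKM as deposited (circles) and after median-of-ratios scaling (squares), filled where the adjusted p was at most 0.05 (*Pgam2* and *Gpd1*, with wide errors, are left out). The second scaling moves the rows down by a median of 0.10, so that the rows filled on the right become open, except *Pgls*, *Bpgm* and the second *Aldoa* row.

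After 7 weeks at 3450 m against 11 weeks at 14% oxygen, none of 39 rows was higher and 1 was lower, while 1.07% of the 17037 genes tested were higher and 0.470% lower. The 1 row was *Hkdc1*, with 3.96 to 5.11 FPKM (median 4.58) in 14-07w-JFJ, against 6.54 to 8.60 FPKM (median 7.91) in 14-11w-ZH (-0.76 ± 0.09 SE, adjusted p = 6.05e-04). *Pgk1* (0.07 ± 0.05 SE, adjusted p = 0.514, 95% interval -0.03 to 0.16), *Eno1* (0.02 ± 0.05 SE, adjusted p = 0.886, interval -0.09 to 0.14) and *Hk2* (0.36 ± 0.13 SE, adjusted p = 0.204, interval 0.07 to 0.65) did not pass. The difference between the 2 effects of JFJ over ZH was tested in 1 fit of 24 mice. In the long pair duration and age at the end differed along with pressure. So did the makeup by Y-linked transcripts, found in 6 of 6 mice of 14-11w-ZH and 3 of 6 of 14-07w-JFJ. The log2 difference of JFJ over ZH was higher at 48 h than at 7 to 11 weeks in 7 of 38 rows and lower in 6, while over the 16774 genes tested it was higher in 19.4% and lower in 7.05%. With median-of-ratios scaling the split was 3 and 10. It was higher at 48 h for *Hkdc1* (0.70 ± 0.12 SE, adjusted p = 7.75e-05), *Pgls* (0.61 ± 0.09 SE, adjusted p = 7.14e-06) and *Bpgm* (0.27 ± 0.05 SE, adjusted p = 4.07e-04). It was lower for *Aldoa* (-0.35 ± 0.06 SE, adjusted p = 1.87e-04), *G6pdx* (-0.34 ± 0.04 SE, adjusted p = 2.64e-06), *Gpd2* (-0.34 ± 0.11 SE, adjusted p = 0.0199), *Hk1* (-0.30 ± 0.05 SE, adjusted p = 3.54e-05) and *Gpi1* (-0.18 ± 0.06 SE, adjusted p = 0.0152). These 8 calls passed in each of the 8 alternatives run for this difference. For it edgeR, the term for Y-linked expression, the GC content correction, all groups in 1 fit and leaving out each mouse were not run.

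The isozyme makeup of several steps differed between the groups. Shares were computed from FPKM per mouse and are given as a description. Of *Hk1*, *Hk2* and *Hkdc1* together, *Hk2* made up 32.2% ± 2.31 after 6 h at 7% oxygen, against 19.6% ± 2.26 in Normoxia (SD, n = 6 each). At 14% oxygen its share was 27.4% ± 2.34 after 6 h, 23.4% ± 0.800 after 48 h and 21.7% ± 2.09 after 11 weeks, the last within 1 SD of Normoxia. At 3450 m it was 26.9% ± 1.90 after 48 h and 25.9% ± 2.92 after 7 weeks. *Eno1* made up 81.0% ± 0.711 of the enolases after 6 h at 7% oxygen, against 65.0% ± 1.34 in Normoxia. At 14% oxygen its share was 75.1% ± 0.678 after 6 h, 72.1% ± 0.623 after 48 h and 68.6% ± 1.16 after 11 weeks, and at 3450 m 70.2% ± 1.41 after 48 h and 70.1% ± 1.48 after 7 weeks. Even the lowest 07-06h-ZH mouse, at 79.96%, lay above the highest Normoxia mouse, at 67.25%.

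Among the phosphofructokinases *Pfkl* took 46.4% ± 3.25 after 6 h at 7% oxygen and 48.7% ± 1.78 after 6 h at 14% oxygen, against 37.5% ± 1.99 in Normoxia. Both hypoxic shares lay above Normoxia and overlapped each other. In the other 4 hypoxic groups its mean share was 40.7% to 46.3%. *Pfkfb3* made up 19.9% ± 2.57 of its family after 6 h at 7% oxygen and 19.5% ± 2.58 after 6 h at 14% oxygen, against 11.8% ± 0.890 in Normoxia, and 15.4% to 16.9% on average in the other 4 hypoxic groups. Of both lactate dehydrogenases, *Ldhb* took 9.20% ± 0.574 after 6 h at 7% oxygen, and 10.4% ± 0.713 after 6 h and 10.6% ± 0.453 after 48 h at 14% oxygen, against 13.5% ± 0.741 in Normoxia. The highest mouse of 14-06h-ZH, at 11.6%, lay under the lowest of Normoxia, at 12.6%. After 11 weeks at 14% oxygen (13.4% ± 0.782) and 7 weeks at 3450 m (13.6% ± 0.902) the share lay within 1 SD of Normoxia. After 48 h at 3450 m it was 11.85% ± 0.707, with mice at 10.8% to 12.9%, against 12.6% to 14.5% in Normoxia. Over all 39 rows the summed FPKM was 3.71% ± 0.146 of the total after 6 h at 7% oxygen, against 2.36% ± 0.0992 in Normoxia. At 14% oxygen it was 3.17% ± 0.209 after 6 h, 2.996% ± 0.0478 after 48 h and 2.57% ± 0.124 after 11 weeks, and at 3450 m 2.68% ± 0.138 after 48 h and 2.59% ± 0.139 after 7 weeks.

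**Figure D5:**
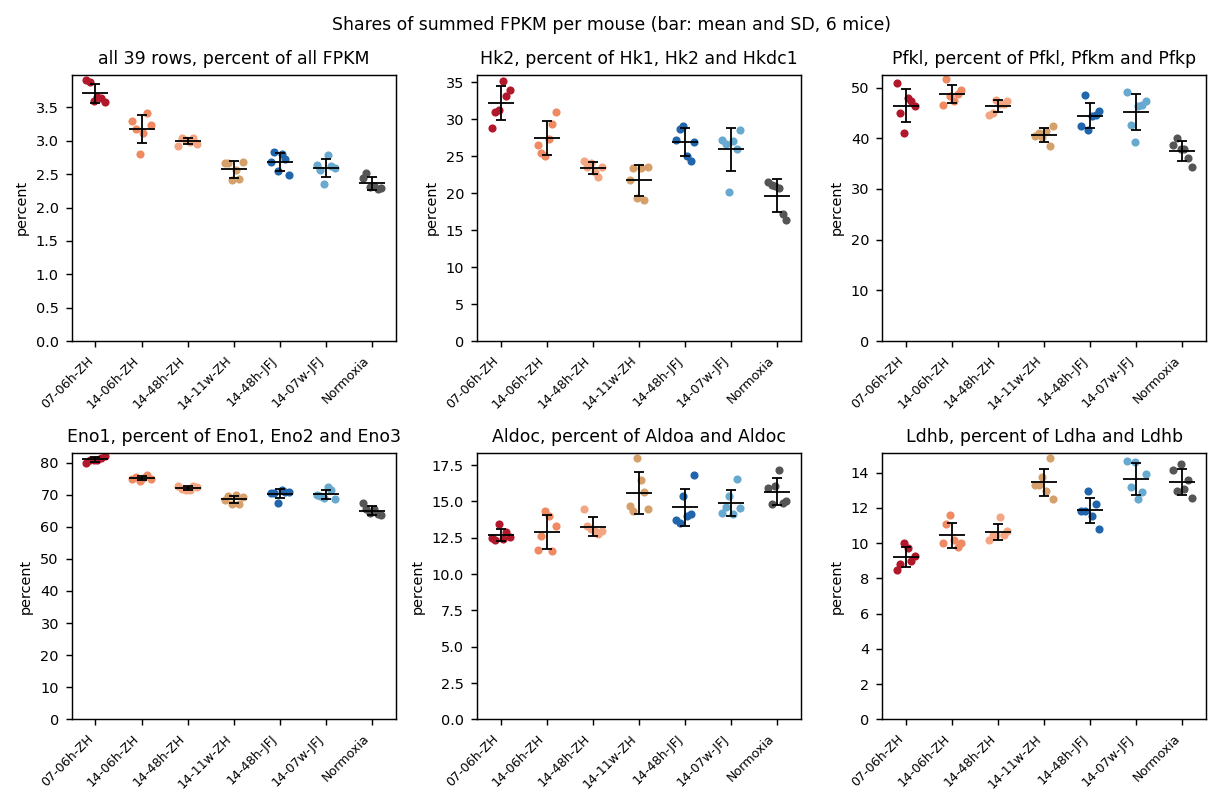
Percent of summed FPKM per mouse for all 39 rows together and for single isozymes within their families, with the mean and SD (n = 6). The total, *Hk2* and *Eno1* are highest in 07-06h-ZH and lowest in Normoxia, and the share of *Ldhb* is lowest in 07-06h-ZH.

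Levels of the remaining isozymes are given over all groups, as ranges. *Eno2* spanned 503 to 595 FPKM over all 42 mice, with group medians of 538 to 575 FPKM. *Gpd1l* spanned 14.6 to 24.6 FPKM over all 42 mice, with group medians of 14.9 to 22.0 FPKM. *Pfkm* spanned 55.7 to 71.4 FPKM over all 42 mice, with group medians of 56.7 to 66.3 FPKM. The other 3 were expressed at lower levels. *Gpd1* spanned 1.33 to 9.93 FPKM over all 42 mice, with group medians of 2.04 to 3.21 FPKM. *Gpd2* spanned 3.07 to 6.15 FPKM over all 42 mice, with group medians of 3.97 to 5.41 FPKM. *Pfkfb4* spanned 8.75 to 12.3 FPKM over all 42 mice, with group medians of 9.43 to 11.0 FPKM. *Gpd2*, the mitochondrial glycerol 3-phosphate dehydrogenase, was lower at 7% than at 14% oxygen as given above and passed in no comparison with Normoxia.

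Some low members varied between single mice. *Pgam2* was at 6.10 and 6.44 FPKM in replicates 1 and 6 of 14-48h-JFJ and at 0.623 to 1.10 FPKM in the other 4, against 0 to 1.05 FPKM in Normoxia, and did not pass (1.86 ± 0.77 SE, adjusted p = 0.186). Replicate 6 was also the highest of its group in *Eno3*, at 47.4 FPKM, and in *Gpd1*, at 9.93 FPKM. *Pgam2* and *Eno3* are the muscle forms of their enzymes. The 10 skeletal muscle markers summed to 8.31 and 9.70 FPKM in replicates 1 and 6, against 8.46 to 10.7 FPKM in Normoxia, and none of them was at 0 in all mice of the group, while 2 were in Normoxia.

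Several members overlap other genes in the deposited coordinates. *G6pdx* overlaps *Ikbkg* over 19712 bases and *Pfkfb2* overlaps *Gm29427*, of the same strand, over 26618 bases. *Pkm* overlaps *AC160637.1*, also of the same strand and at a mean of 94.9 FPKM in Normoxia, and *Pgls* overlaps *Fam129c* of the same strand. Strand does not separate the reads of *Pfkfb2*, *Pkm* and *Pgls* from those of these neighbours. *Ikbkg* lies on the other strand, and as the strand setting is not stated, its reads and those of *G6pdx* cannot be told apart. *Hk2*, *Pfkl*, *Eno1*, *Pgk1* and *Ldha* had no such overlap. *Eno1b*, a near-identical copy of *Eno1*, had 0.536 to 1.31 FPKM in 07-06h-ZH, against 0 to 0.4003 FPKM in Normoxia.

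Genes next to these pathways were counted from lists. Of 27 other genes of glycolysis and the pentose phosphate pathway 21 were tested at 7% oxygen, of which 9 rose and 5 fell (median 0.20), while 18.0% of all genes tested rose and 24% fell. Of 9 glucose and lactate transport genes 7 rose and 1 fell (median 0.68), and of 11 genes of pyruvate dehydrogenase, its kinases and its phosphatases 3 rose and 4 fell (median -0.03). After 11 weeks at 14% oxygen 2 of 22, 2 of 9 and none of 11 rose in these lists and none fell, while 2.02% of all genes tested rose and 1.94% fell. *Slc16a3*, the lactate exporter MCT4, spanned 112 to 145 FPKM (median 127) in 07-06h-ZH, against 21.7 to 33.3 FPKM (median 24.7) in Normoxia (2.28 ± 0.11 SE, adjusted p = 3.80e-09). *Pdk1*, the kinase that switches off pyruvate dehydrogenase, spanned 81.7 to 102 FPKM (median 91.9) in 07-06h-ZH, against 26.3 to 39.8 FPKM (median 31.1) in Normoxia (1.51 ± 0.08 SE, adjusted p = 1.56e-09). After 11 weeks *Slc16a3* passed (0.61 ± 0.14 SE, adjusted p = 0.035) and *Pdk1* did not (0.28 ± 0.08 SE, adjusted p = 0.0592).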

How the data were processed

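Total RNA from 42 whole mouse retinas (7 groups of 6, 1 library per mouse) was sequenced as paired ends. The authors aligned the reads to GRCm38 with STAR (submitters' processing notes, no version given) and deposited FPKM values for 25700 genes, scaled to gene length and library total. They also deposited a second signal per gene, the normalized counts, which are read counts multiplied by 1 factor per library. The counting tool and its strand setting are not given in the sources used here. Whole reads were recovered from the normalized counts in 36 of the 42 libraries (100.0% of values whole within 0.1 of a read), with 13986520 to 33595709 reads per library and a median of 18437268. In the other 6 the depth is unknown. FPKM carry no counting interval, so errors are the spread between mice.

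The 39 rows were found by symbol. Each comparison was fitted with limma 3.58.1 in R 4.3.3 (trended, robust moderation) on log2(FPKM + 0.1), with the 12 mice of its 2 groups, or 24 for the difference between effects. Fold changes are on this scale, which understates changes of low genes. Genes at 0 in more than 3 mice of a group were left out. P-values were Benjamini-Hochberg adjusted over all genes tested, and an adjusted p of at most 0.05 at any fold was a call. The fitting code was tested on simulated data. Count models were not the main test because FPKM are not counts, and edgeR 4.0.16 on the recovered reads was an alternative. The other alternatives were pseudocounts of 1 and 0.01, no filter, a mean of at least 1 FPKM, all groups in 1 fit, scaling by median of ratios, limma without trend and robust, a replicate block, the normalized counts, a term for Y-linked expression, a GC content correction (39 of 39 rows had a GC value), and leaving out each mouse.

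Values per group were given for up to 10 called members with the largest change in each comparison with Normoxia (mean of at least 1 FPKM), for each called member that fell, and for their isozyme families. Other genes were counted in lists only, except *Pdk1* and *Slc16a3*, and genes named as overlaps or near copies, which were chosen from the annotation. One marker gene of the lists is not reported here. Members, lists and tests were chosen with earlier results of these data known. All comparisons with Normoxia share its 6 mice. Promoter windows came from RefSeq (GRCm38.p6). Shares and figures were made in Python 3.11.15 with pandas 2.3.3 and matplotlib 3.10.9.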

Additional observations from a re-analysis of the deposited data

Results flagged for a closer look

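In 14 of 273 sets of 6 mice (39 rows in 7 groups), 1 mouse lay far from the other 5 of its group by Dixon's criterion, in 12 members. Chance gives about 1 in 20 such sets. In 14-48h-JFJ, replicate 6 was far above the others in *Aldoc* (522.6 FPKM), *Eno3* (47.39 FPKM) and *Gpd1* (9.931 FPKM). In 14-48h-ZH, replicate 1 was far above in *Tkt* (222.6 FPKM) and *Gpd1* (3.071 FPKM) and far below in *Pgk1* (205.0 FPKM). In 07-06h-ZH, replicate 1 was far above in *Pfkl* (822.5 FPKM) and *Gpd1l* (21.13 FPKM), and replicate 5 in *Fbp1* (0.2716 FPKM). Replicate 3 was far below in *Pgam1* in 14-06h-ZH (101.1 FPKM) and in *Pgls* in 14-07w-JFJ (20.38 FPKM). Replicate 5 of 14-07w-JFJ was far above in *Tkt* (227.0 FPKM). The corneal and conjunctival epithelium markers summed to 45.8 FPKM in the 14-48h-ZH mouse and 57.4 FPKM in the 14-07w-JFJ mouse high in *Tkt*, each the highest of its group, and their part was not tested. In Normoxia, replicate 1 was far above in *G6pdx* (74.86 FPKM) and replicate 2 in *Pfkm* (61.23 FPKM).

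The difference of JFJ over ZH at 48 h was not the same as at 7 to 11 weeks in 13 members (limma, 24 mice, adjusted p of at most 0.05). It was higher at 48 h in 7 of the 38 rows tested and lower in 6. Over the 16774 genes tested it was higher in 19.4% and lower in 7.05%. Among the members the difference was higher at 48 h, on the log2 scale, by 0.70 in *Hkdc1*, 0.61 in *Pgls*, 0.47 in *Eno3*, 0.33 in *Rpe*, 0.27 in *Bpgm*, 0.21 in *Pgam1* and 0.14 in *Gapdh*. The difference was -0.35 in *Aldoa*, -0.34 in *Gpd2*, -0.34 in *G6pdx*, -0.30 in *Hk1*, -0.18 in *Eno1* and -0.18 in *Gpi1*. With median-of-ratios scaling the limma calls of *Eno3* (adjusted p = 0.112), *Rpe* (0.0984), *Pgam1* (0.196) and *Gapdh* (0.571) were lost. That of *Eno1* was lost with a pseudocount of 1, with no filter, and without trend and robust. The 4 groups come from 4 code series, so series and pressure cannot be told apart. The same holds for the transport and light/dark cycle of the JFJ mice. In the long pair it also holds for duration, age at the end and the makeup by Y-linked transcripts.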

How the results depend on the processing

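At 7% oxygen 22 of the 23 calls over Normoxia passed in each of 12 alternatives (*Gpd1l* was lost with the Y-linked term), and so did 24 of the 25 calls of 7% over 14% oxygen (*Pgam2* passed in the 11 in which it was tested). Over Normoxia this held for 19 of 25 calls in 14-06h-ZH and 19 of 25 in 14-48h-ZH, but for 2 of 6 in 14-11w-ZH, 5 of 13 in 14-48h-JFJ and 3 of 9 in 14-07w-JFJ. No named value turned its direction while called. The 14-11w-ZH count over Normoxia (6 calls) was 2 with limma without trend and robust and 2 with edgeR. The 14-48h-JFJ count (13) was 5 with edgeR and 6 with the Y-linked term, and the 14-07w-JFJ count (9) was 3 with edgeR, 4 with the Y-linked term and 4 without trend and robust. For 14-48h-ZH over 14-06h-ZH (5) it was 2 with all groups in 1 fit and 2 without trend and robust. For 14-07w-JFJ over 14-11w-ZH (1) it was 2 with a mean of at least 1 FPKM, 3 with all groups in 1 fit and 3 with the GC correction. The cause was not tested.

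Leaving out each mouse in turn gave 23 to 25 calls in 07-06h-ZH, 23 to 26 in 14-06h-ZH, 23 to 26 in 14-48h-ZH, 5 to 9 in 14-11w-ZH, 10 to 13 in 14-48h-JFJ and 5 to 12 in 14-07w-JFJ. The 5 came without replicate 4 of Normoxia and the 12 without replicate 3 of 14-07w-JFJ.

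The labels give no pairing of mice by replicate number. Correlations of same-numbered deviations ran from -0.68 to 0.69, the highest in 14-11w-ZH over Normoxia, and do not settle whether mice were paired. With the replicate block there were 11 calls in 14-11w-ZH over Normoxia, 2 in 14-48h-ZH over 14-06h-ZH and 2 in 14-07w-JFJ over 14-11w-ZH. The other counts stayed within 1.5 times.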
